A study of Homo sapiens with 42 samples.

Results

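The 6 libraries described here come from untreated MOLM-13 cells: 3 of heavy polysome RNA and 3 of input RNA from the same 3 cultures, out of 42 libraries in the series. They were taken by their labels, which give vehicle in RPMI medium and a replicate number that runs through both fractions. MOLM-13 is an established human acute myeloid leukemia line with an activating tandem duplication in FLT3, a receptor kinase, and a fusion of KMT2A with MLLT3. Both groups have the same treatment, vehicle (DMSO) for 12 hours in RPMI with serum, with no quizartinib (a FLT3 inhibitor) and no everolimus (an mTOR inhibitor), and differ only in the RNA that was sequenced. Input is RNA of the whole lysate, and heavy polysomes are the bottom part of a sucrose gradient, where messages carry many ribosomes. The cells had been given cycloheximide, which holds ribosomes on their messages, shortly before lysis. Libraries were made from poly(A)-selected RNA, so an RNA without a poly(A) tail was counted only as far as that step let it through. The other groups of the series were treated with quizartinib, everolimus or both, or kept in hBMSC-CM, medium conditioned by a human bone marrow stromal line. Of these, only vehicle in hBMSC-CM is compared gene by gene below. The inhibitor-treated groups enter the common fit and the ranges given for the 6 other conditions of the series.

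A ribosome that has started on a message is followed by others, and a message with many ribosomes sediments deep in the gradient. How deep it goes depends on how often ribosomes start, how fast they move and how long the reading frame is, since a short frame has room for few ribosomes. RNAs that cytosolic ribosomes do not read, such as messages of the mitochondrial genome or long noncoding RNAs (lncRNAs) held in the nucleus, are the usual yardstick for what reaches the bottom of a gradient by other routes. The ratio of heavy polysome to input is relative: reads are shared out among all messages of a library, so a message can be higher only against the other messages of that library.

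The sequences below are the starts of reading frames, shown because the ratio followed base composition more closely than any other feature measured here. Each is the first 90 bases of the coding sequence (5′ to 3′, DNA letters, the whole frame for RPL41), from the GENCODE transcripts on GRCh38, with the last base of each codon in capitals. The first 3 are from among the messages most enriched in heavy polysomes, the next 3 from among the most depleted ones. They are not strictly the most extreme: CYC1 (log2 2.39), NPIPB4 (-4.99), NPIPB5 (-4.70) and ZNF700 (-4.59) are not shown. The NPIPB pair has a higher coding GC than the 3 depleted frames shown. The contrast between these frames therefore depends in part on which were shown.
CFD (chromosome 19, 859453-867884, + strand): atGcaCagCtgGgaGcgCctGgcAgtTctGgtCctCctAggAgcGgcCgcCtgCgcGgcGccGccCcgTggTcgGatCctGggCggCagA
PITPNM1 (chromosome 11, 67491768-67506263, - strand): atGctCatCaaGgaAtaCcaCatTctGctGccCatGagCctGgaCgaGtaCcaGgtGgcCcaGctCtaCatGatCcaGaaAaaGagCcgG
SPATA2L (chromosome 16, 89696357-89701705, - strand): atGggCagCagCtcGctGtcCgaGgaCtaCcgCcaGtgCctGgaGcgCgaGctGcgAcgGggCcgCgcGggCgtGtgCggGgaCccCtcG
ZNF117 (chromosome 7, 64971772-65006684, - strand): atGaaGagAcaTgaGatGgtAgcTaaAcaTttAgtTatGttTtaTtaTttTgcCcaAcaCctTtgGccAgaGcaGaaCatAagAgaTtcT
DMTF1 (chromosome 7, 87152409-87196337, + strand): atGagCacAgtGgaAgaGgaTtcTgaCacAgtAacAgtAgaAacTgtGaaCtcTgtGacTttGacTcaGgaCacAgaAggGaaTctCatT
ESF1 (chromosome 20, 13714322-13784919, - strand): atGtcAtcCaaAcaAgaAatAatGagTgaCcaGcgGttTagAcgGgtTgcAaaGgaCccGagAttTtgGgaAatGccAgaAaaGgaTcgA
In the first 3, 23, 27 and 29 of 30 codons end in G or C. In the next 3, 11, 13 and 13 of 30 do. The whole coding sequences differ in the same direction, with 91.3%, 78.6% and 81.6% of the last codon positions G or C against 29.2%, 35.7% and 32.9%. The next 3 frames are shown because they go against one of the trends described further on: RPL41 is one of the shortest frames known, ARID1A is G/C-rich but depleted, and PRDX1 is A/T-rich but enriched.
RPL41 (chromosome 12, 56116590-56117967, + strand): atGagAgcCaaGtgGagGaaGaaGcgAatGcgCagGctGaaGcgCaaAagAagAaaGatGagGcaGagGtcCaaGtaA
ARID1A (chromosome 1, 26693236-26782104, + strand): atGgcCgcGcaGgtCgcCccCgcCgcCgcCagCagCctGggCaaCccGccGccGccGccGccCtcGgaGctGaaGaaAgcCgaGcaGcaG
PRDX1 (chromosome 1, 45510914-45542732, - strand): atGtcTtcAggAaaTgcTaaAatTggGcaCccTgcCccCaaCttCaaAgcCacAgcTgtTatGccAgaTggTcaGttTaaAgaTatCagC

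Total counts ran from 27.8 to 38.8 M reads in the heavy polysome libraries and from 27.5 to 37.2 M reads in the input libraries. Heavy polysome libraries held fewer kinds of RNA, with a count for 17467 to 18266 genes against 20363 to 21367 in input. Across genes, libraries of the same fraction correlated at 0.965 or more (Pearson, log2 CPM) and libraries of different fractions at 0.856 to 0.905. The myeloid markers fixed for these cells summed to 721 to 729 CPM (counts scaled to a common library size, here without TMM factors) in input and 766 to 816 CPM in heavy polysomes, with 7 of 8 at a mean of at least 1 CPM in both and ANPEP at no more than 3 counts in every library. Bone marrow stromal markers summed to 0.837 to 4.70 CPM in input and 0.359 to 1.91 CPM in heavy polysomes, with COL3A1, DCN, LUM and THY1 at no more than 3 counts everywhere. Lymphoid markers summed to 1.60 to 2.04 CPM and 1.04 to 5.52 CPM, with CD3E and MS4A1 at no more than 3 counts in input, and erythroid markers to 0 in input and at most 0.103 CPM in heavy polysomes. Their part in the results below was not tested. All CPM of single genes below are scaled with TMM factors, so they are not on the scale of these sums.

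Most messages of these cells were either richer or poorer in heavy polysomes than in input. Of 12939 genes tested with the edgeR quasi-likelihood test, 8457 (65.4%) passed at an adjusted p under 0.05, with 4070 (31.5%) higher in heavy polysomes and 4387 (33.9%) lower. A difference of at least 2-fold was found for 2904 genes (22.4%) in the higher direction and 3428 (26.5%) in the lower. For 9121 genes (70.5%) the 3 heavy polysome values did not overlap the 3 input values. The median over all genes was -0.06 on the log2 scale with TMM factors, 0.08 with RLE factors and -0.61 with library size alone. The split of calls follows that centre: 48.1% of calls were higher with TMM, 53.3% with RLE and 27.5% (2266 higher, 5978 lower) with library size alone, so directions are given relative to the median gene. Of the genes named below as higher, RPLP0, EEF2, PPP1R15A, GPX1, SPI1, FOS, TUBB, AL662797.1, MRPS18C, PLEC, FLNA, NBEAL2, BCL2L1, SNRNP70, SRSF7, HIST2H2AC and HIST3H2A were no longer called with library size alone, at adjusted p of 0.054 (TUBB) to 0.84 (NBEAL2). There were 16 called genes, 8 of them lncRNAs, with no count in any heavy polysome library, and their fitted ratios depend on the prior count of the fit.

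**Figure D1:**
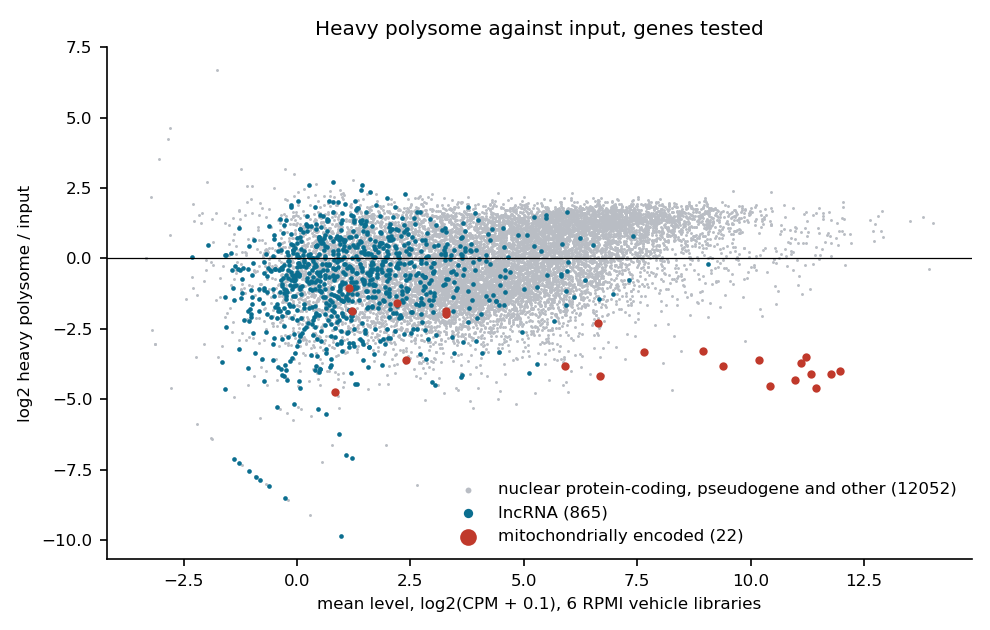
Each point is 1 of 12939 tested genes, with its mean level over the 6 libraries as log2(CPM + 0.1) on the x axis and its log2 ratio of heavy polysome to input on the y axis. The 22 mitochondrially encoded RNAs lie below 0 at every level, and lncRNAs reach down further than they reach up.

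RNA made in mitochondria was almost absent from heavy polysomes. All mitochondrially encoded RNA together took 7.59%, 3.17% and 3.68% of the counts of the 3 input libraries and 0.319%, 0.122% and 0.183% of the heavy polysome libraries, a mean of 4.81% ± 2.42 (SD, n = 3) against 0.208% ± 0.101 (SD, n = 3), or 23.1-fold less. Every heavy polysome library lay below every input library. This gives p = 0.1 in a two-sided exact permutation test, the smallest that 3 against 3 allow (0.108 after Benjamini-Hochberg adjustment over the 13 classes compared). Culture 1 had the largest mitochondrial share in both fractions. All 13 mitochondrial messages, which are read by the organelle's own ribosomes, were lower in heavy polysomes (adjusted p under 0.05, against 33.9% of all genes), with a median log2 ratio of -3.84 and a range from -4.62 to -2.28. MT-CO1, the catalytic subunit of cytochrome c oxidase, was at 649.5, 352 and 430.0 CPM in heavy polysomes and 12104, 5346 and 5297 CPM in input. Its log2 ratio was -3.99 ± 0.57 (SE), adjusted p = 4.4e-07. MT-ND4, a subunit of complex I, had the lowest value (log2 -4.62 ± 0.91 (SE), adjusted p = 5.6e-05) and MT-ND6, the one message on the light strand, the least low (log2 -2.28 ± 0.46 (SE), adjusted p = 6.6e-05). For MT-CYB, the cytochrome b of complex III, the value was a log2 ratio of -3.61 ± 0.45 (SE), adjusted p = 5.9e-08. The mitochondrial ribosomal RNAs MT-RNR2 and MT-RNR1 had log2 ratios of -4.09 and -3.29.

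Nuclear-encoded subunits of the same respiratory complexes lay on the other side. Of 75 measured nuclear genes of oxidative phosphorylation, 39 were higher in heavy polysomes (52.0% against 31.5% of all genes) and 4 lower (5.33% against 33.9%). The other 32 did not pass, and the median log2 ratio was 0.76 against -0.06 for all genes. CYC1, the cytochrome c1 that works beside MT-CYB, had the largest ratio of any gene eligible for naming: it was at 1665, 1317 and 959 CPM in heavy polysomes and 279.8, 222 and 251 CPM in input, and the groups were far apart (log2 2.39 ± 0.20 (SE), adjusted p = 1.5e-10). UQCRC1, a core subunit of the same complex, had a log2 ratio of 1.67. In complex I, NDUFS7 and NDUFV1, which hold iron-sulfur clusters, had 1.93 and 1.90. In complex IV, COX4I1 and COX5B had 1.49 and 1.67, where MT-CO1 of the same enzyme had -3.99. ATP5F1B, the catalytic subunit of ATP synthase, had 1.70. The 4 that were lower are ATP5F1E (-0.93), NDUFA5 (-0.91), NDUFS1 (-0.79) and ATP5MD (-0.60). The call for NDUFA5 was lost without heavy polysome library 1 (adjusted p = 0.094). The call for ATP5MD was lost without heavy polysome library 1 (0.14) or 3 (0.10) or input library 1 (0.20), with RLE factors (0.11), DESeq2 (0.10) or no filter (0.13), and with the cultures as a block (0.064). COX7C, one of the smallest subunits, had 0.42 and did not pass (adjusted p = 0.071). It did pass with RLE factors (0.018), with DESeq2 (0.013) and without heavy polysome library 1 (0.030). With library size alone its log2 ratio was -0.13. Proteins of the mitochondrial ribosome had a like profile, with 45 of 76 higher (59.2% against 31.5% of all genes) and 10 lower (13.2% against 33.9%). Their median was 0.81, from -1.97 for MRPL42 to 2.16 for MRPL49. The list medians by culture for oxidative phosphorylation were 0.44, 0.94 and 0.60, so culture 1 was the lowest of the 3. Genes named here beside the fixed ones were chosen after their values were seen, here and in the paragraphs that follow.

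Long noncoding RNAs were on the whole poor in heavy polysomes. They took 0.725%, 0.795% and 0.750% of input counts and 0.372%, 0.373% and 0.409% of heavy polysome counts, without overlap (exact permutation p = 0.1, 0.108 adjusted). Of 865 tested lncRNA genes, 316 were lower, a share (36.5%) near that of all genes (33.9%). Only 88 were higher (10.2% against 31.5%) and 461 did not pass, with a median of -0.59. MALAT1, which sits in nuclear speckles, was at 3.29, 7.39 and 5.55 CPM in heavy polysomes and 70.6, 89.5 and 57.1 CPM in input (log2 -3.74 ± 0.42 (SE), adjusted p = 8.5e-09). NEAT1, the scaffold of paraspeckles, was at 4.91, 4.04 and 2.68 CPM in heavy polysomes and 54.1, 81.2 and 61.6 CPM in input (log2 -4.08 ± 0.42 (SE), adjusted p = 2.6e-09). Both were below input in each of the 3 cultures without overlap. Of the 7 measured lncRNAs listed as nuclear, 6 were lower (85.7% against 33.9% of all genes), FTX (-4.39), FIRRE (-3.85) and TUG1 (-3.30) among them. TUG1 is on that list as a lncRNA, although the annotation used here gives it as protein-coding. JPX, a noncoding RNA of the X chromosome, had the largest drop of the eligible lncRNAs, from 17.0, 26.3 and 25.7 CPM in input to 0.429, 2.22 and 0.968 CPM (log2 -4.21 ± 0.50 (SE), adjusted p = 2.8e-08). THAP9-AS1 followed (log2 -4.15 ± 0.54 (SE), adjusted p = 1.1e-07), and THAP9 on the opposite strand was also lower (-2.78). The opposite strand of JPX holds FTX. Because the strand used in counting is not given in the sources used here, reads of such partners cannot be told apart.

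Other well-known lncRNAs and host genes of small nucleolar RNAs had medians nearer to 0 than the lncRNAs listed as nuclear (-3.74). The 2 measured RNAs of stable ribonucleoproteins lay further from 0. NORAD, a cytoplasmic lncRNA that binds Pumilio proteins, was at 52.9, 25.9 and 37.2 CPM in heavy polysomes and 117, 95.2 and 87.4 CPM in input (log2 -1.37 ± 0.32 (SE), adjusted p = 4.2e-04), and OIP5-AS1 had -2.22. In all, 6 of 8 other well-known lncRNAs were lower (75% against 33.9% of all genes), with a median of -1.27. Host genes of small nucleolar RNAs, whose spliced RNA is mostly noncoding yet is reached by ribosomes, had a median of -0.83. Of 24 measured, 14 were lower (58.3% against 33.9% of all genes) and 0 higher (against 31.5%). ZFAS1 was at 10.0, 9.11 and 11.0 CPM in heavy polysomes and 24.6, 22.9 and 28.7 CPM in input (log2 -1.34 ± 0.33 (SE), adjusted p = 6.7e-04), while SNHG1 had -0.60 and did not pass (adjusted p = 0.088), although it did with the cultures as a block (0.024). GAS5 had log2 -0.77 ± 0.28 (SE), adjusted p = 0.015, and its call was lost without heavy polysome library 2 (adjusted p = 0.12), heavy polysome library 3 (0.068) or input library 1 (0.059). SNHG4 was the lowest of the list (-3.36). Of the RNAs of stable ribonucleoproteins, only the signal recognition particle RNAs RN7SL1 (log2 -5.16 ± 1.10 (SE), adjusted p = 1.5e-04) and RN7SL2 (log2 -5.31 ± 1.14 (SE), adjusted p = 1.7e-04) passed the filter. Both were far lower in heavy polysomes in every culture, although they have many near-identical copies and no poly(A) tail, which makes their values uncertain.

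Some lncRNAs were rich in heavy polysomes, and most of these have exons opposite another gene. Of 70 lncRNA genes at least 2-fold higher, 61 had exons overlapping a gene on the other strand, as did 540 of all 865 tested. Over 540 lncRNAs with such an overlap the median was -0.39 (73 higher, 173 lower), and over 325 without one it was -0.89 (15 higher, 143 lower). The 4 lncRNAs named for the largest ratios all had such a partner. AC114271.1 (log2 1.84 ± 0.31 (SE), adjusted p = 7.3e-06) overlaps ICAM3 (1.68) and RAVER1 (1.92). AC006064.4 (log2 1.65 ± 0.23 (SE), adjusted p = 3.0e-07) overlaps GAPDH, the glycolytic enzyme, whose ratio was 1.68. AL662797.1 overlaps TUBB, a beta-tubulin (1.43), and its own value was a log2 ratio of 1.63 ± 0.59 (SE), adjusted p = 0.016, a call that was lost without heavy polysome library 1 (adjusted p = 0.14) or input library 3 (0.076). MIF-AS1 (log2 1.55 ± 0.36 (SE), adjusted p = 4.1e-04) overlaps MIF, a cytokine (1.58). Over 411 pairs of a lncRNA and an opposite protein-coding gene, the log2 ratios had a Spearman correlation of 0.54, a description in which partners share their place in the genome and possibly reads.

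**Figure D2:**
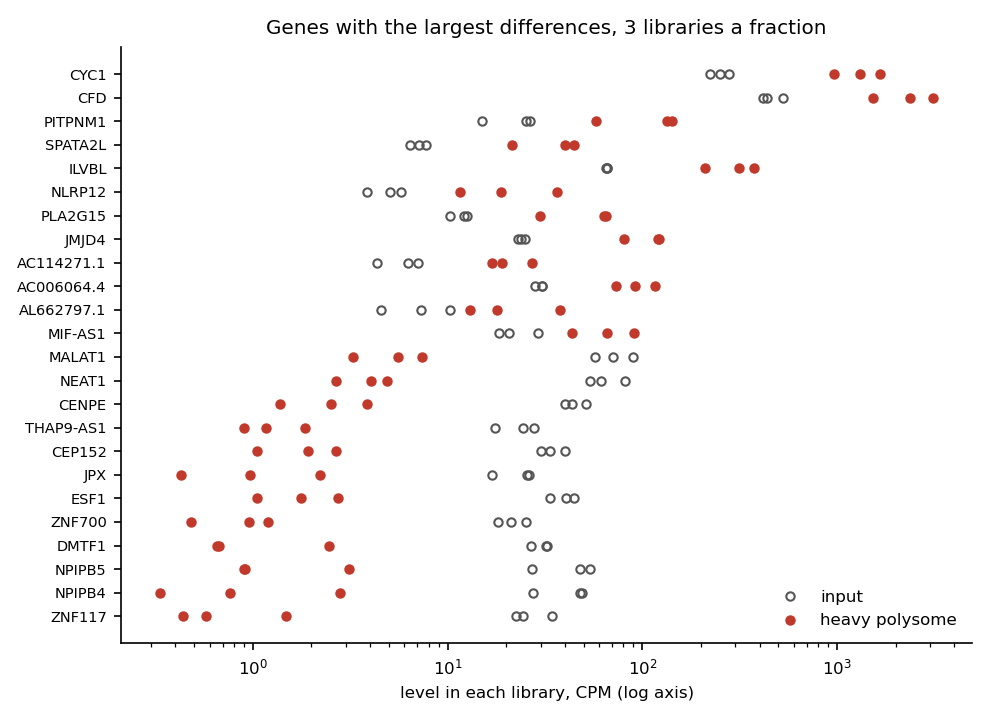
Level in each of the 3 heavy polysome libraries (filled points) and 3 input libraries (open points), in CPM on a log axis, for the 8 protein-coding genes and 4 lncRNAs with the largest ratio in each direction. The filled and open points of a gene do not overlap, as the rule for choosing these genes required.

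The protein-coding messages with the largest ratios after CYC1 were of mixed function. CFD, the protease adipsin of the complement system, was at 2374, 3119.9 and 1534 CPM in heavy polysomes and 418, 525 and 438 CPM in input (log2 2.35 ± 0.29 (SE), adjusted p = 5.2e-08). PITPNM1, a phosphatidylinositol transfer protein, was at 134, 143 and 57.7 CPM in heavy polysomes and 26.5, 25.4 and 15.0 CPM in input (log2 2.32 ± 0.59 (SE), adjusted p = 9.4e-04). SPATA2L had log2 2.32 ± 0.27 (SE), adjusted p = 2.0e-08, ILVBL, an enzyme of fatty acid oxidation, log2 2.19 ± 0.30 (SE), adjusted p = 2.4e-07, and NLRP12, a myeloid receptor of the NLR family, log2 2.18 ± 0.35 (SE), adjusted p = 3.3e-06. PLA2G15, a lysosomal phospholipase, had log2 2.18 ± 0.30 (SE), adjusted p = 2.1e-07, and JMJD4, a hydroxylase of the translation termination factor, log2 2.16 ± 0.30 (SE), adjusted p = 3.5e-07. In CYC1 and these 7 messages culture 3 had the lowest heavy polysome value and still lay above input. Their coding GC lay between 58.2% for NLRP12 and 72.2% for CFD.

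The protein-coding messages with the lowest ratios lay further from 0 than those with the highest. ZNF117, a zinc finger protein, was at 1.48, 0.437 and 0.572 CPM in heavy polysomes and 24.4, 34.2 and 22.4 CPM in input (log2 -5.05 ± 0.47 (SE), adjusted p = 7.1e-10), and ZNF700 of the same family at 0.953, 1.20 and 0.484 CPM in heavy polysomes and 18.1, 25.3 and 21.1 CPM in input (log2 -4.59 ± 0.45 (SE), adjusted p = 1.7e-09). DMTF1, a cyclin D-binding transcription factor, was at 0.667, 0.656 and 2.46 CPM in heavy polysomes and 26.7, 32.4 and 32.0 CPM in input (log2 -4.59 ± 0.53 (SE), adjusted p = 1.7e-08). ESF1, a nucleolar factor, had log2 -4.40 ± 0.64 (SE), adjusted p = 6.0e-07, CEP152, a centrosome protein, log2 -4.19 ± 0.59 (SE), adjusted p = 4.3e-07, and CENPE, a kinesin of the kinetochore, log2 -4.11 ± 0.54 (SE), adjusted p = 1.3e-07. NPIPB4 (-4.99) and NPIPB5 (-4.70) are near-identical copies on chromosome 16, so the division of reads between them is uncertain. Except for the NPIPB pair, with 56.2% and 56.0% coding GC, these messages had a coding GC of 35.3% (CENPE) to 43.0% (DMTF1). In input, the lowest value of any of the 8 was that of ZNF700 in culture 1.

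Base composition was the feature that the ratio followed most closely. Over 10766 nuclear protein-coding genes with a coding sequence in the annotation, the log2 ratio had a Spearman correlation of 0.72 with the GC of the coding sequence, 0.73 with GC at the last codon position and 0.77 with GC of the whole transcript. Genes were split into 10 groups of like size by coding GC. In the lowest group (up to 41.2%) the median was -1.68, with 88.7% of genes lower and 0.371% higher. In the highest group (above 64.3%) it was 1.17, with 4.09% lower and 69.9% higher. Between these the medians rose in every step, through -0.11 in the group up to 52.3% GC and 0.87 in that up to 58.3%, and came to 1.07 and 1.15 in the groups above. With library size alone the lowest and highest groups were at -2.23 and 0.61. The correlation with coding GC held in each culture, at 0.745, 0.672 and 0.658 for cultures 1, 2 and 3. In the 6 other conditions of the series, which share none of these libraries and include the inhibitor-treated ones, it was 0.684 to 0.709. Weighted by reads, the coding GC of a library was 57.3%, 57.1% and 56.4% in heavy polysomes and 53.4%, 53.7% and 53.9% in input. Fraction and any difference between the fractions in how their RNA went through library preparation cannot be told apart, since each library is of 1 fraction.

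**Figure D3:**
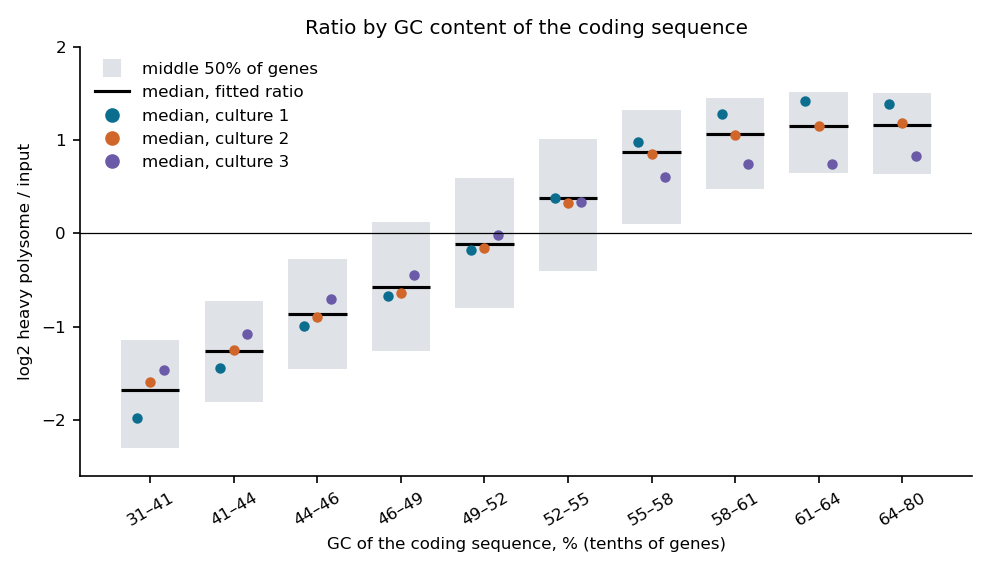
Log2 ratio of heavy polysome to input for 10766 nuclear protein-coding genes in 10 groups by GC of the coding sequence, in percent on the x axis. Boxes span the middle 50% of genes, lines are medians of the fitted ratio and points are medians of each culture, which rise from -1.98, -1.59 and -1.47 in the lowest group to 1.39, 1.18 and 0.83 in the highest.

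Codons gave the same picture as GC. Of 61 sense codons, 28 of the 31 that end in G or C had a share in the coding sequence that correlated positively with the log2 ratio (median Spearman 0.38), and none of the 30 that end in A or T did (median -0.47). The highest values were for CTG of leucine (0.65), GCC of alanine (0.62) and GGC of glycine (0.58), and the lowest for AAA of lysine (-0.67) and GAA of glutamate (-0.64). The 3 exceptions among G/C-ending codons were TTG of leucine (-0.37), ATG of methionine (-0.11) and AGG of arginine (-0.01). AAG, the other codon of lysine, had 0.09. These shares are not independent of each other or of GC.

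Messages with long frames were poor in heavy polysomes. The Spearman correlation of the log2 ratio was -0.22 with coding length and -0.39 with transcript length. For coding length it was -0.11, -0.27 and -0.30 in cultures 1, 2 and 3, and -0.13 in hBMSC-CM vehicle. Over the 6 other conditions, inhibitor-treated ones included, it ran from -0.25 to 0.0055, so it did not hold in all of them. For transcript length these 6 gave -0.38 to -0.22. Median ratios were highest for frames of 100 to 300 residues, at 0.40 for 100 to 200 and 0.43 for 200 to 300, and fell through -0.27 for 500 to 1000 and -0.75 for 1000 to 1500 to -1.40 above 2000. Of 276 messages above 2000 residues, 63.4% were lower and 12.0% higher. Frames of up to 100 residues had a median of 0.01, with culture 1 at -0.39 and cultures 2 and 3 at 0.08 and 0.09. Coding length and coding GC are linked, so each gene was also set against the median of genes of like GC (20 bins). Relative to these, the median was 0.24 for 200 to 300 residues and -0.95 above 2000. With genes split into 3 groups by GC and 3 by length, the median went from -0.76 for short to -1.64 for long frames at low GC and from 0.50 to -0.40 at middle GC. At high GC it was 1.08 for short and 1.04 for long frames. The length of the 3' untranslated region had a Spearman correlation of -0.34 with the ratio, and the mean level of the gene one of 0.40.

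**Figure D4:**
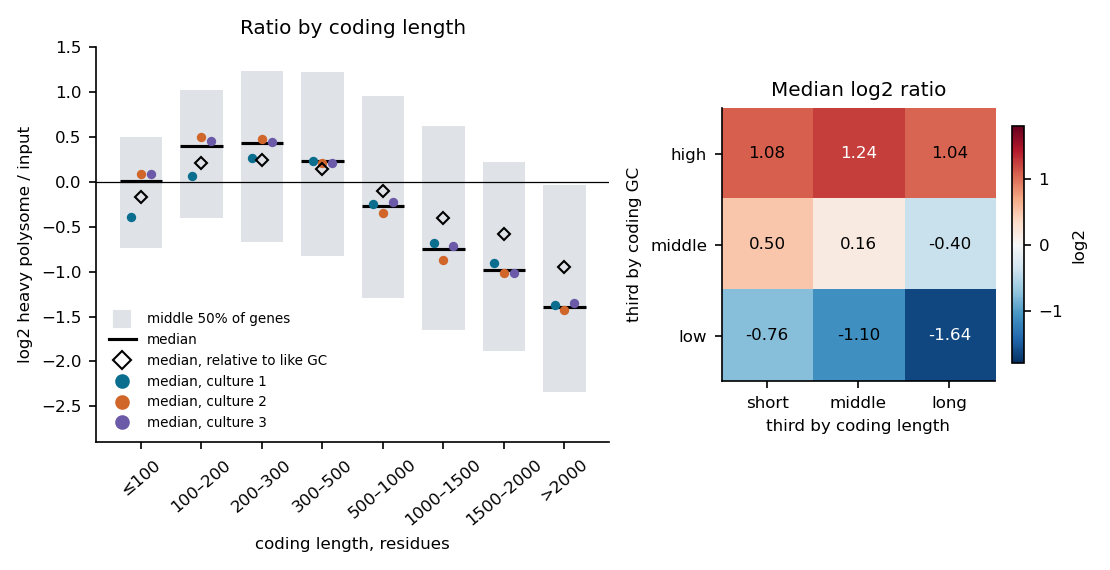
Left, log2 ratio of heavy polysome to input by coding length in residues: boxes span the middle 50% of genes, lines are medians, points are medians of each culture and diamonds are medians relative to genes of like GC. Right, median log2 ratio in 3 by 3 groups of genes by coding GC and coding length, from -1.64 for long low-GC frames to 1.24 for high-GC frames of middle length.

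Named messages of very large proteins showed the same drop. Of 56 measured, 42 were lower (75% against 33.9% of all genes) and 3 higher, with a median of -1.64 and -0.92 relative to genes of like GC. AHNAK, a scaffold protein of 5890 residues, was at 74.8, 155 and 118 CPM in heavy polysomes and 204, 380.0 and 299.8 CPM in input (log2 -1.35 ± 0.37 (SE), adjusted p = 0.0022). HUWE1, a ubiquitin ligase of 4374 residues, was at 121, 117 and 103 CPM in heavy polysomes and 227, 272 and 260.2 CPM in input (log2 -1.15 ± 0.23 (SE), adjusted p = 5.0e-05). The kinases ATM (-2.93), MTOR (-1.96) and PRKDC (-1.65), the mitotic proteins CENPF (-3.14) and ASPM (-3.08) and the histone methyltransferase KMT2C (-3.05) were all lower. DYNC1H1, the heavy chain of dynein, had -0.40 and did not pass (adjusted p = 0.12). The 3 that were higher are PLEC (1.33) and FLNA (0.97), which link parts of the cytoskeleton, and NBEAL2 (0.65), with a coding GC of 61.7% to 66.9%. Heavy polysome and input values of FLNA and NBEAL2 overlapped. Without heavy polysome library 1 the adjusted p was 0.10 for PLEC, 0.30 for FLNA and 0.38 for NBEAL2. FLNA was lost as well without input library 1 (0.096) or 3 (0.067), and NBEAL2 without input library 1 (0.12) or 2 (0.051). Both were also lost with limma voom (0.052 and 0.060) and at a mean of at least 10 CPM (0.072 and 0.13). NBEAL2 was lost with the compared libraries alone too (0.076). With the cultures as a block the adjusted p was 0.060 for FLNA and 0.091 for NBEAL2.

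Messages of very small proteins had no common direction. Of 60 measured, 11 were higher and 10 lower (18.3% and 16.7%, against 31.5% and 33.9% of all genes), with a median of 0.13 (-0.41 with library size alone). RPL41, whose frame of 25 residues is printed above, was at 436, 323 and 326 CPM in heavy polysomes and 754, 581 and 632 CPM in input (log2 -0.86 ± 0.19 (SE), adjusted p = 2.8e-04). RPL39, with 51 residues, was at 213, 299 and 278 CPM in heavy polysomes and 459.8, 439 and 456 CPM in input (log2 -0.78 ± 0.20 (SE), adjusted p = 0.0011). Both were lower in heavy polysomes in every culture. The thymosins TMSB4X (-0.39, adjusted p = 0.33) and TMSB10 (-0.35, adjusted p = 0.20), of 44 residues each, did not pass. TIMM9, a chaperone of mitochondrial import, had the lowest value of the list (-2.45).

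Messages of the translation machinery were divided. Of 80 cytosolic ribosomal protein genes, 31 were higher (38.8% against 31.5% of all genes), 11 lower (13.8% against 33.9%) and 38 did not pass, with a median of 0.32 (0.03, 0.39 and 0.47 in cultures 1 to 3). With library size alone that median was -0.22. Their share of all counts did not separate the fractions, at 13.5%, 14.6% and 18.6% in heavy polysomes and 15.9%, 14.7% and 16.8% in input (exact permutation p = 0.9). RPL3 was at 9268, 8992 and 8167 CPM in heavy polysomes and 4069, 4385 and 5131 CPM in input (log2 0.96 ± 0.16 (SE), adjusted p = 6.9e-06), and RPLP0, of the ribosomal stalk, had log2 0.85 ± 0.21 (SE), adjusted p = 8.8e-04. RPS9 (1.39) and RPL8 (1.33) had the highest values, and the lowest value of the list was -3.25. Of the 80, 7 were at least 2-fold higher and 2 at least 2-fold lower, against 22.4% and 26.5% of all genes. Messages that share the 5' terminal oligopyrimidine tract (5TOP), which mTOR controls, but encode other proteins had 10 of 22 lower (45.5% against 33.9% of all genes) and 6 higher (27.3% against 31.5%), with a median of -0.34. PABPC1, the poly(A)-binding protein, had the lowest ratio of these, at 294, 103 and 259.7 CPM in heavy polysomes and 2341, 1299 and 1350.2 CPM in input (log2 -2.93 ± 0.55 (SE), adjusted p = 3.0e-05). The elongation factor EEF1A1 had -0.36 and did not pass (adjusted p = 0.23), while EEF2 was higher (log2 0.99 ± 0.33 (SE), adjusted p = 0.0089), a call that was lost without heavy polysome library 1 (adjusted p = 0.15). TPT1 was lower (log2 -1.26 ± 0.43 (SE), adjusted p = 0.012), a call that was lost without heavy polysome library 2 (0.084). Subunits of the initiation factor eIF3 went opposite ways, with -1.99 for EIF3H and -1.73 for EIF3E against 1.32 for EIF3K. NPM1, a nucleolar chaperone, had -1.16 and IMPDH2, an enzyme of guanine nucleotide synthesis, 1.37.

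**Figure D5:**
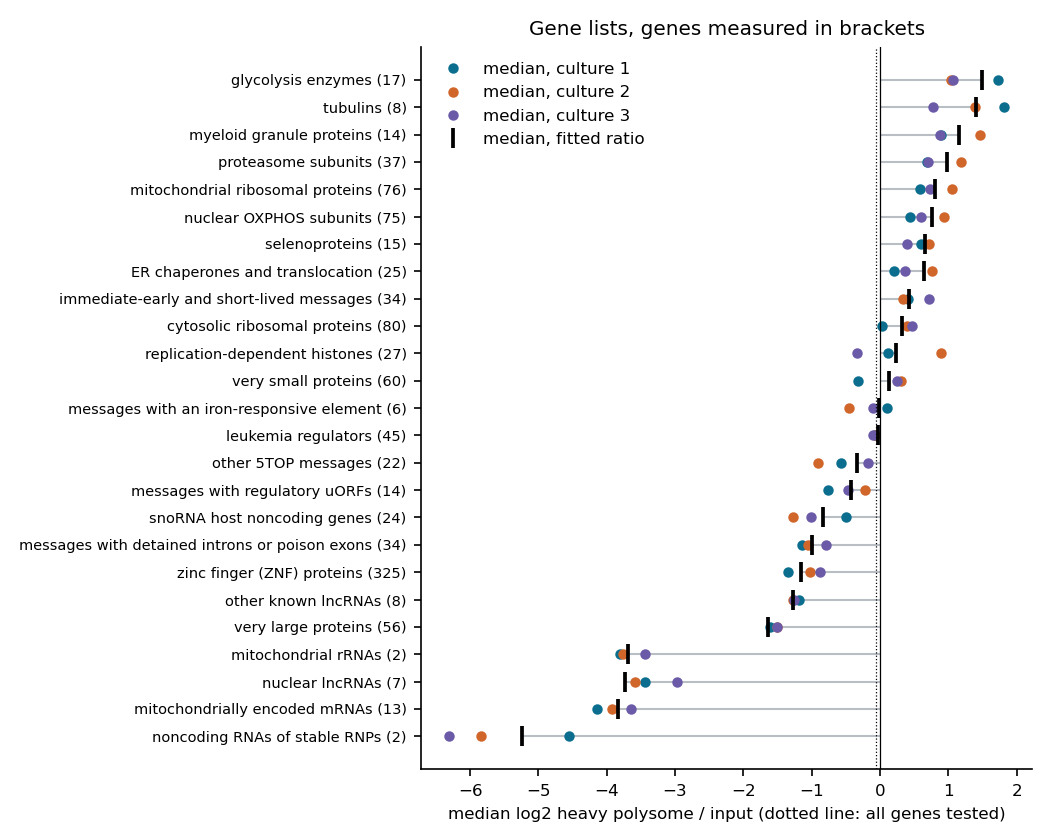
Median log2 ratio of heavy polysome to input for 25 gene lists, with the number of measured genes in brackets. Black ticks are medians of the fitted ratio, points are medians of each culture and the dotted line is the median of all genes (-0.06). Lists of glycolysis enzymes and tubulins are at the top (1.50 and 1.40). RNAs of stable ribonucleoproteins (-5.23), mitochondrially encoded RNAs and nuclear lncRNAs are at the bottom.

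Enzymes of glycolysis and tubulins were the lists with the highest medians. Of 17 glycolytic enzymes, 13 were higher (76.5% against 31.5% of all genes) and 1, HK2, was lower, with a median of 1.50 (0.83 relative to genes of like GC). GAPDH was at 13129.5, 13437 and 8185 CPM in heavy polysomes and 3732, 3500.3 and 3618 CPM in input (log2 1.68 ± 0.22 (SE), adjusted p = 1.4e-07) and ENO1, the enolase, at 12597, 7589.8 and 7279 CPM in heavy polysomes and 3334, 3824 and 3461 CPM in input (log2 1.37 ± 0.21 (SE), adjusted p = 1.1e-06). PFKL (2.16) and TPI1 (1.88) had still larger ratios. HK2, a hexokinase, had log2 -1.13 ± 0.38 (SE), adjusted p = 0.0093, which was lost without heavy polysome library 2 (adjusted p = 0.063). All 8 tubulins were higher (100% against 31.5% of all genes), from 0.98 for TUBB6 to 1.75 for TUBA1A. TUBB was at 8969.9, 4427 and 4695 CPM in heavy polysomes and 2549.6, 2232 and 1914 CPM in input (log2 1.43 ± 0.43 (SE), adjusted p = 0.0039). Of 37 proteasome genes, 21 were higher (56.8% against 31.5% of all genes) and 8 lower (21.6% against 33.9%), with a median of 0.99. The subunits of the immunoproteasome, PSMB8 (1.86), PSMB9 (1.62) and PSMB10 (1.75), were all higher, and PSMD1 of the regulatory particle had the lowest value (-1.82).

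Messages of granule proteins, which myeloid cells store for the killing of microbes, were mostly rich in heavy polysomes. As a list, 9 of 14 were higher (64.3% against 31.5% of all genes) and 1 was lower, with a median of 1.16, and their share of all counts was 2.70%, 3.74% and 3.26% in heavy polysomes against 1.45%, 1.78% and 2.08% in input (exact permutation p = 0.1). ELANE, neutrophil elastase, was at 10710.0, 11868 and 9289.9 CPM in heavy polysomes and 2933, 3471 and 4725 CPM in input (log2 1.52 ± 0.24 (SE), adjusted p = 2.1e-06). AZU1, azurocidin, was at 3909, 4790.4 and 3879 CPM in heavy polysomes and 935, 1281 and 1886 CPM in input (log2 1.62 ± 0.35 (SE), adjusted p = 1.6e-04). MPO, myeloperoxidase, was at 394, 222 and 196 CPM in heavy polysomes and 86.8, 85.5 and 113 CPM in input (log2 1.51 ± 0.34 (SE), adjusted p = 3.0e-04). CTSG and PRTN3, further serine proteases, had 1.57 and 1.46. The 1 that was lower, MS4A3, is a membrane protein (adjusted p = 0.0068), and its call was lost without heavy polysome library 1 (adjusted p = 0.051).

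Proteins of the endoplasmic reticulum, which serve the same secretory route, were split, with 10 of 25 higher and 7 lower, shares (40% and 28%) near those of all genes (31.5% and 33.9%), and a median of 0.64. SSR2 (1.62) and SEC61A1 (1.37) of the translocon and the folding factors CALR (1.35) and P4HB (1.25) were higher. HSPA5, the main chaperone of this compartment, was lower, at 450.0, 384 and 373 CPM in heavy polysomes and 782, 1112 and 1054 CPM in input (log2 -1.29 ± 0.28 (SE), adjusted p = 1.8e-04), and so was HSP90B1 (-2.09). CANX, the membrane-bound relative of CALR, had log2 -0.62 ± 0.22 (SE), adjusted p = 0.013. This call was lost without input library 2 (adjusted p = 0.052) and with no filter (0.063).

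Regulators of leukemia cells had no common direction. Of 45, 16 were higher (35.6% against 31.5% of all genes) and 20 lower (44.4% against 33.9%). Their median was -0.03 (0.11 with RLE factors), and -0.34 relative to genes of like GC. FLT3 was at 64.4, 58.0 and 60.5 CPM in heavy polysomes and 147, 113 and 94.6 CPM in input (log2 -0.96 ± 0.26 (SE), adjusted p = 0.0019). KMT2A and MLLT3, the genes of the fusion in these cells, had log2 -2.51 ± 0.50 (SE), adjusted p = 5.5e-05 and -2.46. MEIS1 (log2 -1.13 ± 0.19 (SE), adjusted p = 7.1e-06), MYB (log2 -1.10 ± 0.26 (SE), adjusted p = 3.8e-04) and CDK6 (log2 -1.33 ± 0.23 (SE), adjusted p = 1.0e-05) were lower, and HOXA9 had -0.59 (adjusted p = 0.053, 0.010 with the cultures as a block). The myeloid factors CEBPA (log2 1.55 ± 0.31 (SE), adjusted p = 6.0e-05) and SPI1 (log2 1.13 ± 0.33 (SE), adjusted p = 0.0033) were higher. CEBPA was at 1585, 1865 and 1043 CPM in heavy polysomes and 478, 550.5 and 506 CPM in input. The receptor CSF1R had 1.45, and the kinase PIM1, a target of FLT3 signaling, 1.24. Members of the BCL2 family differed: BCL2 was lower at 33.6, 41.1 and 36.6 CPM in heavy polysomes and 92.2, 80.5 and 76.0 CPM in input (log2 -1.16 ± 0.16 (SE), adjusted p = 4.0e-07), BCL2L1 was higher (1.17), and MCL1 had -0.03 (adjusted p = 0.87). Cyclin D3 (CCND3) was higher (1.89). MYC was at 663, 519 and 832 CPM in heavy polysomes and 577, 453 and 441 CPM in input, higher in heavy polysomes of each culture, but did not pass (log2 0.45 ± 0.29 (SE), adjusted p = 0.17).

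Messages known for control of translation through upstream reading frames had no common direction. Of 14 measured, 3 were higher and 6 lower (21.4% and 42.9%, against 31.5% and 33.9% of all genes). The stress factor ATF4 had -0.05 (adjusted p = 0.90), ATF5 0.80 (0.077) and DDIT3 -0.53 (0.24), and none of these passed. With the replicate number as a block in the 6 libraries alone, ATF5 (0.014) and DDIT3 (0.036) did. CEBPA, CEBPB (1.39) and PPP1R15A (log2 0.87 ± 0.33 (SE), adjusted p = 0.020) were the 3 that were higher. The call for PPP1R15A was lost without heavy polysome library 2 (adjusted p = 0.16) or input library 1 (0.069), and at a mean of at least 10 CPM (0.063). AMD1, of polyamine synthesis, was lower (log2 -1.50 ± 0.61 (SE), adjusted p = 0.031), and 4 left-out libraries ended its call, with adjusted p of 0.060 without heavy polysome library 1, 0.15 without heavy polysome library 2, 0.072 without input library 1 and 0.051 without input library 3. MDM2 (-1.03) and IBTK (-1.33) were lower too.

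Messages with an iron-responsive element had a median near 0, and selenoproteins one above that of all genes. Of 6 measured iron-responsive messages, 1 was higher (16.7% against 31.5% of all genes) and 0 lower (against 33.9%), with values up to 1.14. Their median was -0.02 (0.13 with RLE factors), with -0.03 for FTH1 and -0.01 for FTL, the ferritin chains, and 0.09 for TFRC, the transferrin receptor. None of these 3 passed, at adjusted p of 0.93, 0.98 and 0.82. Of 15 selenoproteins, 7 were higher (46.7% against 31.5% of all genes) and 1, SELENOW, was lower, with a median of 0.66. GPX1, a glutathione peroxidase, had log2 0.66 ± 0.26 (SE), adjusted p = 0.026, but the call was lost without heavy polysome library 1 (adjusted p = 0.078) or 2 (0.10) or input library 2 (0.051) or 3 (0.094). It was lost as well at a mean of at least 10 CPM (0.087). GPX4 had 0.68 and did not pass (adjusted p = 0.071), although it did with the cultures as a block (0.028), and TXNRD2 had 1.61. SELENOW had -0.70, lost without heavy polysome library 2 (adjusted p = 0.12) or input library 3 (0.051), and with no filter (0.11).

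Messages with detained introns or poison exons, spliced forms that stay in the nucleus or are broken down, were poor in heavy polysomes. Of 34 measured, 20 were lower (58.8% against 33.9% of all genes) and 2 higher, with a median of -0.99 and of -0.70 relative to genes of like GC. The kinases of splicing factors CLK1 (log2 -1.74 ± 0.42 (SE), adjusted p = 6.3e-04) and CLK4 (log2 -2.10 ± 0.53 (SE), adjusted p = 8.5e-04) were lower. SRSF5 was at 51.3, 67.4 and 111 CPM in heavy polysomes and 267, 325 and 277 CPM in input (log2 -1.92 ± 0.37 (SE), adjusted p = 4.1e-05), while SRSF2 had 0.21 (adjusted p = 0.61). CCNL1 (-3.77), PNISR (-3.58) and LUC7L3 (-2.73) were among the lowest. The 2 that were higher are SRSF7 (0.86) and SNRNP70 (0.92). Counts are per gene, so spliced and unspliced forms were not separated.

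Immediate-early messages, which cells make and break down quickly, had a median above that of all genes, and zinc finger messages one below. Of 34 immediate-early messages, 13 were higher, a share (38.2%) near that of all genes (31.5%), and 3 lower (8.82% against 33.9%), with a median of 0.43 (-0.11 with library size alone). JUNB (1.85), DUSP2 (1.75) and GADD45B (1.68) were higher, and FOS had log2 0.61 ± 0.25 (SE), adjusted p = 0.029. The FOS call was lost without heavy polysome library 3 (adjusted p = 0.096) or input library 3 (0.14), and at a mean of at least 10 CPM (0.11). JUN had 0.27 (adjusted p = 0.87). The 3 that were lower are CCNL1, ZFP36L1 (-1.14) and BTG1 (-1.09). Their median coding GC was 63.3%, and relative to genes of like GC the list median was -0.51. Of 325 zinc finger (ZNF) genes, 190 were lower (58.5% against 33.9% of all genes) and 65 higher (20% against 31.5%), with a median of -1.15, a median coding GC of 46.2% and -0.38 relative to genes of like GC. Replication-dependent histone messages end in a stem-loop and not a poly(A) tail. Of 27, 25 did not pass, 0 were lower (against 33.9% of all genes) and 2 were higher (7.41% against 31.5%), HIST2H2AC (1.39) and HIST3H2A (1.06). Their median was 0.24 (-0.33 with library size alone), with culture medians of 0.11, 0.90 and -0.33. Relative to genes of like GC it was -0.97, at a median coding GC of 61.6%.

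Some messages lay far from others of their GC. Among genes that passed with at least 50 CPM and groups that did not overlap, the 6 lowest relative to like GC were ARID1A, PNN, ARID1B, EP400, IGF2BP2 and TRIM56. ARID1A, a subunit of the SWI/SNF chromatin remodeler with 59.8% coding GC, was at 48.8, 27.7 and 28.7 CPM in heavy polysomes and 165, 168 and 165 CPM in input (log2 -2.25 ± 0.31 (SE), adjusted p = 3.4e-07). ARID1B of the same complex had -2.12, EP400, a further remodeler, -1.93, and the ubiquitin ligase TRIM56 -1.76. PNN, a splicing-associated protein, had -4.10, and IGF2BP2, an RNA-binding protein, -2.68. The 6 highest were PRDX1, LY86, POLR2H, GSTO1, PPIE and MRPS18C. PRDX1, a peroxiredoxin with 46.1% coding GC, was at 448, 707 and 546 CPM in heavy polysomes and 210.4, 239.8 and 222 CPM in input (log2 1.34 ± 0.26 (SE), adjusted p = 3.9e-05). GSTO1, a glutathione transferase, had 1.66, PPIE, a cyclophilin, 1.79, and MRPS18C 0.86. POLR2H, a shared subunit of RNA polymerases, had 1.36, and LY86, a myeloid surface protein, 1.33. Proteins of the high set have 142 (MRPS18C) to 301 (PPIE) residues and those of the low set 599 (IGF2BP2) to 3123 (EP400).

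The same profile was found in untreated cells in conditioned medium. In hBMSC-CM vehicle, 8227 genes (63.6%) passed, and of the 4070 genes higher in RPMI, 3518 were also higher there (86.4% of the RPMI and 91.9% of the hBMSC-CM calls). Of the 4387 lower genes, 3889 were lower there (88.6% and 88.4%), and no gene was called in opposite directions. The log2 ratios of the 2 media, which share no library, had a Pearson correlation of 0.929 across genes, a description in which points share gene length and base composition. The difference between media itself was called for 0 of 12939 genes (0.0%) with edgeR and 0 with limma voom, with 211 and 171 genes at an unadjusted p under 0.05, and for 1 gene with DESeq2 (291 at an unadjusted p under 0.05). The median absolute difference was 0.23 and the median standard error of a difference 0.43, so small differences between media were not detectable with 3 cultures each. For the mitochondrial messages the median in hBMSC-CM was -4.19 beside -3.84 in RPMI, for oxidative phosphorylation 0.47 beside 0.76, and for snoRNA host genes -1.42 beside -0.83. Replicates are separate cultures only as far as the replicate numbers say so.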

How the data were processed

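RNA of heavy polysomes and of input was sequenced as poly(A)-selected paired-end libraries. The deposited values are raw read counts per gene, which the authors made after adapter trimming by alignment with STAR 2.6.0a to hg38, per the submitters' processing notes, with counts summed by gene name. The strand setting of the counting is not given in the sources used here. Groups and replicate numbers came from the labels, and the members and gene lists were chosen with earlier results of these data known.

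Tested were the 12939 genes whose mean over all 42 libraries reached 1 CPM and 1 count. edgeR 4.0.16 (R 4.3.3; quasi-likelihood test, TMM factors) was fitted to all 42 libraries with 1 mean per group, and p-values were adjusted by Benjamini-Hochberg (threshold 0.05). Alternatives were limma 3.58.1 (voom), DESeq2 1.42.0, other scalings, filters and blocks, and each library left out. Data were simulated for 12939 genes with mean levels and spread taken over all 42 libraries. The test recovered 39% of 100 genes changed 2-fold and 82% of 100 changed by a log2 of 2, and 7.63% of its calls were false, above the 5% aimed at. All other genes were left unchanged there, while 65.4% of genes were called in the data, so these rates may not hold for the comparison itself. Genes named are marked members of the lists, plus the 8 protein-coding and 4 lncRNA genes of largest ratio in each direction (called, at least 10 CPM, no overlap). Others were chosen after their values were seen. Some genes of the lists are not reported here by name. Coding sequences, GC and biotypes came from GENCODE v44 (hg38), which matched 12898 of the tested genes and may differ from the authors' annotation. Python 3.11.15, pandas 2.3.3 and scipy 1.17.1 were used.

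Replicate numbers pair the fractions: deviations of same-numbered libraries correlated at 0.133 to 0.260 and of others at -0.147 to 0.006. The fit without that pairing is given, since the study's methods state none.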

Additional observations from a re-analysis of the deposited data

How the results depend on the processing

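The number of genes called stayed within 1.5 times of 8457 under every alternative run, from 6223 (mean of at least 10 CPM) to 9565 (replicate block within each fraction, chosen after seeing the data), and was 7581 to 8273 without 1 library. With the replicate block, which the numbers allow, it was 8767 with the compared libraries alone and 8694 by culture in all libraries, and the pairing ended no call of a named gene other than FLNA, NBEAL2 and ATP5MD and gave new ones for SNHG1, ATF5, DDIT3, GPX4 and HOXA9. Genes at least 2-fold higher were 803 with library size alone and 1860 at a mean of at least 10 CPM, against 2904, where the scaling moves the median gene and the stricter filter tests fewer genes. The difference between media gave 1 gene with no filter and 1 with DESeq2, in place of 0. The DESeq2 gene was CCL22, with a fitted log2 difference of 17.5 ± 3.42 (SE), adjusted p = 0.0042. The cause was not tested. Relative to genes of like GC (chosen after seeing the data) the median was 0.24 for 200 to 300 residues and -0.95 above 2000, and at a mean of at least 10 CPM it was -1.60 above 2000 (-1.44 to -1.36 without 1 replicate number). Of 2825 values of 177 named genes under an alternative, 2678 kept direction and side of the threshold, 69 were no longer past it, 44 newly passed it and 34 changed sign.

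All 34 belong to genes that did not pass. With RLE factors and with DESeq2 the log2 ratio was 0.10 for ATF4, 0.12 for FTH1, 0.14 for FTL and 0.11 for MCL1, and with no filter 0.0030, 0.039, 0.044 and 0.012. With library size alone it was -0.13 for COX7C, -0.49 for TFRC, -0.082 for MYC, -0.26 for JUN and -0.32 for SRSF2. TFRC also had -0.11 at a mean of at least 10 CPM, -0.0061 with limma voom and -0.079 with the replicate block. Without 1 library the values ran from -0.22 to 0.092 (ATF4), -0.31 to 0.11 (FTH1), -0.27 to 0.23 (FTL), -0.37 to 0.35 (TFRC), -0.19 to 0.16 (MCL1), -0.19 to 0.60 (JUN) and -0.16 to 0.41 (SRSF2). Of 419 list medians under an alternative, 18 changed sign, those of histones, ribosomal proteins, iron-responsive, very small, leukemia and immediate-early messages.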
